A study of Mus musculus with 6 samples.

Results

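To follow MHC class II antigen presentation and costimulation in the sorted lineage-traced cells, 8 genes were taken by name from the 23494 genes of the UMI count tables. They are Cd74, H2-Aa, H2-Ab1, H2-Eb1, H2-DMa, H2-DMb1, Ciita and Cd86. The rule names them by what they encode and sets no measured level, though earlier results of these data were known when they were chosen. All 8 are present in each of the 3 tables, which hold the NG2-tdT+ cells, the Tbx18-tdT+ cells and the naïve cells of both lines. Cd74, H2-Aa, H2-Ab1 and H2-Eb1 were also summed, and these 4 are called the class II set below.

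The cells came from the cerebral cortex of mice aged 3 to 4 months that carried the Ai14-flx reporter and either NG2-Cre-ERT2 or Tbx18-CreERT2. All mice received tamoxifen, which in the injury groups preceded injury by 7 days. Each line gave a naïve group, a physical injury group injected with saline and an ischemic injury group injected with ET-1/L-NAME, and injured cortex was collected 3 days after injection. Live cells were sorted as tdT+/DAPI-, so that the reporter gate and the cells in which each Cre driver was active set which types entered a library. The animals of a group were pooled into 1 droplet library, giving 6 libraries and no replicate of any condition. No test between conditions was therefore possible. Levels are summed counts divided by all UMIs of the same cells and scaled to 1000000, written CPM, and the intervals given are 95% intervals (exact Poisson for summed counts, exact Clopper-Pearson for shares, exact conditional binomial for ratios) that cover counting error only.

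The 6 libraries held 686 to 4306 cells and 3153996 to 54276245 UMIs, and any pair of libraries shared 0 to 5 cell barcodes. The Tbx18-tdT+ naïve library was the smallest and shallowest, with 686 cells and a median of 2806 UMIs. At least 3 of the 6 pan-leukocyte markers Ptprc, Tyrobp, Fcer1g, Laptm5, Cd52 and Coro1a were detected in 17, 32 and 162 NG2-tdT+ cells of the naïve, physical injury and ischemic injury libraries, and in 0, 354 and 279 Tbx18-tdT+ cells. Most of them lie in the cluster that the study names microglia in each line, cluster 9 of the NG2-tdT+ cells and cluster 3 of the Tbx18-tdT+ cells. That name does not hold for the 76 naïve Tbx18-tdT+ cells of cluster 3, which had 0 counts of all 6 pan-leukocyte markers, a summed pericyte list of 20676 CPM and a median of 1118 UMIs. Results for Tbx18-tdT+ cluster 3 are therefore given for the injured libraries only.

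Class II molecules present peptides from internalised proteins to CD4 T cells. An alpha chain such as H2-Aa and a beta chain such as H2-Ab1 or H2-Eb1 assemble with the invariant chain Cd74, which blocks the peptide groove and directs the complex to endosomes, where the H2-DMa and H2-DMb1 heterodimer exchanges the remnant of Cd74 for peptide. Ciita, the class II transactivator, is the main switch of these genes and binds no DNA itself but docks on factors at the X and Y boxes of their promoters, while Cd86 is a ligand for Cd28 and Ctla4 on T cells and is controlled separately. In the healthy brain, resting microglia carry little class II, whereas macrophages of the borders, dendritic cells and blood-derived monocytes can carry much of it.

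Of the 8 genes, 5 lie in the class II region of chromosome 17, and Ciita and Cd86 lie on chromosome 16. In the GENCODE M21 annotation of GRCm38, which may not be the release used for counting, H2-Ab1 spans chr17:34257689-34269419 on the plus strand, H2-Aa spans chr17:34282744-34287823 on the minus strand and H2-Eb1 spans chr17:34305867-34316674 on the plus strand. H2-DMa (chr17:34119541-34139101) and H2-DMb1 (chr17:34153072-34160230) lie on the plus strand. Ciita spans chr16:10480059-10528418 on the plus strand and Cd86 spans chr16:36603869-36666081 on the minus strand. The annotated H2-DMa gene overlaps Brd2 and 3 other genes, H2-Eb1 overlaps Gm20513 and Ciita overlaps Dexi. H2-DMb1 has the near copy H2-DMb2 and H2-Eb1 has the near copy H2-Eb2, so the division of reads within each pair is uncertain.

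Since these genes share regulators at their promoters, 4 class II promoters are shown, from RefSeq sequence of GRCm38.p6. Each line is written 5′ to 3′ on the strand of the gene and runs from 140 to 21 bases before the annotated start. Capitals mark AACNGATG, a core of the X box, and GATTGG, the Y box (an inverted CCAAT), or its reverse complement. H2-Eb1 and H2-Aa are members, H2-DMb2 stands in for its near copy H2-DMb1, and H2-Eb2 is the near copy of H2-Eb1.
H2-Eb1 (chr17:34305727-34305846, plus strand): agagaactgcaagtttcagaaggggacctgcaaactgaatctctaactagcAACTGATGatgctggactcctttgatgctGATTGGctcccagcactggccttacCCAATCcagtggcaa
H2-Eb2 (chr17:34325535-34325654, plus strand): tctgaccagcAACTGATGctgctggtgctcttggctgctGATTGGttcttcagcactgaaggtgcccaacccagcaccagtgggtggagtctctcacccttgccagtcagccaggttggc
H2-DMb2 (chr17:34145109-34145228, plus strand): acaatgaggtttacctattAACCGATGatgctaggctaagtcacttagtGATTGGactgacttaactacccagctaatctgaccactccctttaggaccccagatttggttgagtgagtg
H2-Aa (chr17:34287844-34287963, minus strand): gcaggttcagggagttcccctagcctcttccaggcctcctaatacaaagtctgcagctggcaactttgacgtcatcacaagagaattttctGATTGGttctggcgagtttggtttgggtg

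In H2-Eb1 the X core began 89 bases before the start and the Y box 60 bases before it, with a reverse Y box at 35 bases. In H2-Aa a Y box began at 49 bases and these letters of the X core were not found. The member H2-DMa, not shown, held neither motif between 140 and 21 bases before its annotated starts. Its only Y box lay further out, 199 bases before a start. Both strands were searched over 32851 promoters of 300 bases (250 before to 50 after the start), of which 2.32% held AACNGATG and 16.1% held GATTGG. An X core followed by a Y box 25 to 35 bases downstream, a spacing set after the matches were seen, was found in 5 promoters, or 0.0152%, those of H2-Eb1, H2-Eb2, H2-DMb1, H2-DMb2 and BC051142. TTCNNNGAA, the gamma-activated site, was in 8.30% of promoters and in none of the 4 members with an entry (H2-Aa, H2-Eb1, H2-DMa and H2-DMb1). These matches describe letters and were not tested as binding sites.

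After injury, class II transcripts were abundant among the Tbx18-tdT+ cells and scarce among the NG2-tdT+ cells. Cd74, the invariant chain, whose gene spans chr18:60803848-60812652 on the plus strand and overlaps Mir5107, was at 30.2 CPM in the NG2-tdT+ naïve library, 3.89 CPM after physical injury and 8.90 CPM after ischemic injury. In the Tbx18-tdT+ libraries it was at 2.85 CPM (1.30 to 5.42) from 9 counts, 1876 CPM (1860 to 1891) and 2437 CPM (2416 to 2459). The high value of the NG2-tdT+ naïve library rests on 1 cell, which gave 606 of the 611 counts and without which it was 0.247 CPM.

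The class II chains had the same order of libraries within the Tbx18 line. The alpha chain H2-Aa was at 0.634 CPM from 2 counts in the naïve library, 885 CPM after physical injury and 1131 CPM after ischemic injury. H2-Ab1 was at 2.85, 798 and 1108 CPM, and H2-Eb1 was at 7.93, 875 and 1178 CPM. For each chain both injured libraries lay far above the naïve library and their intervals did not overlap with its own. The share of all genes past 2-fold is given below. In the NG2 line, in the same order of libraries, H2-Aa was at 0, 0.932 and 1.93 CPM, H2-Ab1 at 12.1, 3.00 and 5.88 CPM, and H2-Eb1 at 14.8, 2.63 and 3.32 CPM. Without the same cell the naïve values were 3.46 CPM for H2-Ab1, which then lay below the ischemic injury library, and 4.94 CPM for H2-Eb1. Before cells were filtered, genes found in fewer than 3 cells of a library were removed by the study, so that a 0 for a whole library can stand for 1 or 2 cells with any number of counts, and no limit or fold is given against it.

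The peptide editors followed the chains in the Tbx18 line. H2-DMa was at 3.80, 89.3 and 101 CPM and H2-DMb1 at 0, 72.6 and 84.4 CPM in the naïve, physical injury and ischemic injury libraries. The transactivator Ciita was at 0, 9.60 and 16.9 CPM, and the costimulatory ligand Cd86 was at 0, 119 and 221 CPM. In the NG2 line Cd86 was at 7.5 CPM (6.36 to 8.79), 24.8 CPM (22.9 to 26.9) and 40.5 CPM (38.8 to 42.2), and H2-DMa at 5.77, 8.02 and 11.6 CPM. For both the intervals of the 3 libraries did not overlap. For H2-DMa this was narrow, with 4.77 to 6.92 CPM naïve and 6.95 to 9.22 CPM after physical injury. How many of all genes did so was not counted. The leukocyte cluster of this line held 18, 36 and 164 cells in the same libraries. H2-DMb1 was at 1.28, 1.26 and 3.76 CPM there, and Ciita stayed between 0.148 and 0.446 CPM, from 3 to 21 counts.

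**Figure D1:**
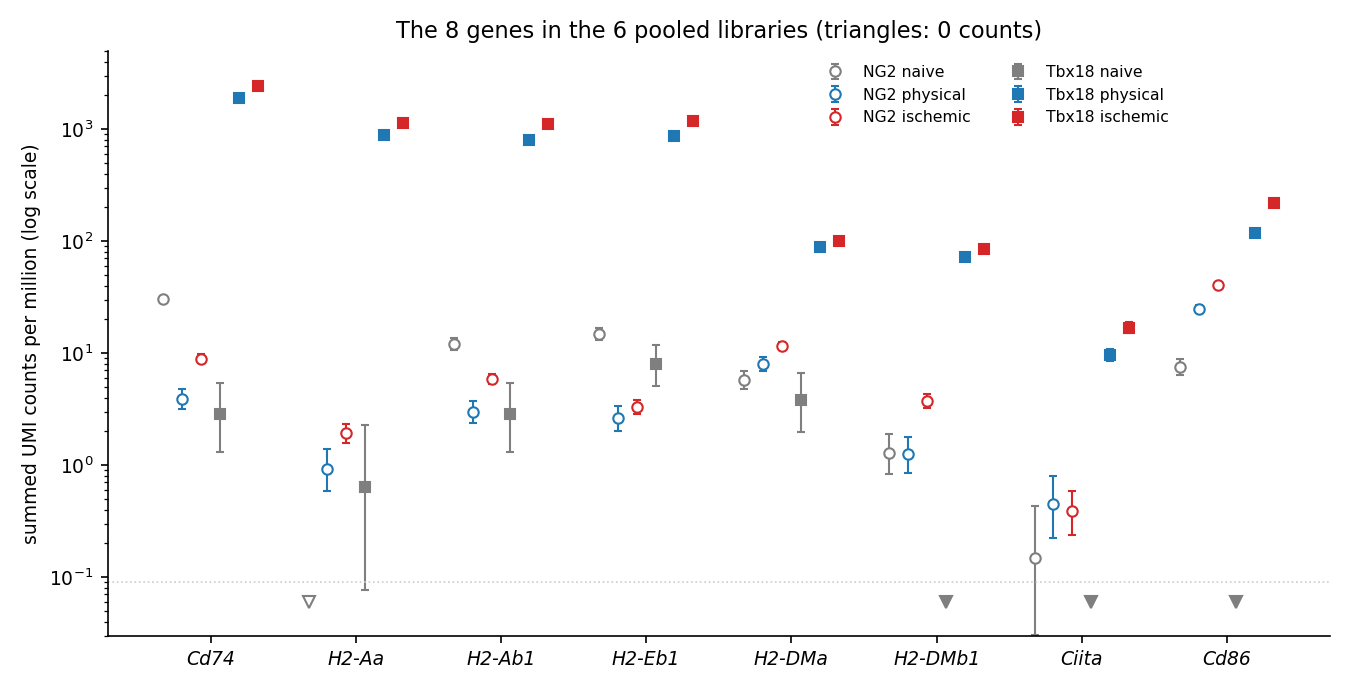
Summed level (CPM) of the 8 genes in each of the 6 pooled libraries, on a log scale, with exact Poisson 95% intervals (counting error only); open circles are NG2-tdT+ and filled squares Tbx18-tdT+ libraries, and triangles mark 0 counts. Cd74 was at 1876 and 2437 CPM in the injured Tbx18-tdT+ libraries and at 2.85 to 30.2 CPM in the other 4.

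A gene was called past 2-fold where log2 of the CPM ratio, with a pseudocount of 1 CPM, was at least 1 either way and the higher group had at least 50 CPM. By this rule 7 of the 7 members that could be called were higher after physical injury than in the naïve Tbx18-tdT+ library, where 8.11% of all callable genes were higher and 10.6% lower. After ischemic injury they were again 7 of 7, against 15.6% of genes higher and 14.7% lower. Ciita stayed under 50 CPM in both. Cd86 and H2-DMb1 were called against 0 counts in the naïve library, which has 686 cells. No member reached 50 CPM in a whole NG2-tdT+ library, so none could be called there, where 14.6% of genes were higher and 6.17% lower after physical injury and 17.2% and 14.5% after ischemic injury. These library sums mix the number of leukocytes sorted with the level in each of them, and both injured Tbx18-tdT+ libraries share 1 naïve library.

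In the injured Tbx18-tdT+ libraries, nearly all of these transcripts came from the leukocyte cluster. Of the class II set counts, Tbx18-tdT+ cluster 3 (318 of 3845 and 265 of 2047 cells) held 97.2% with physical and 98.6% with ischemic injury. It also held 99.2% and 99.4% of the Cd86 counts. The study formed its clusters from the same counts and lists Cd74 among the markers of cluster 3. These shares were therefore set in part by the clustering. NG2-tdT+ cluster 9, with 18, 36 and 164 cells, held 100% of the Cd86 counts in the naïve library and 99.5% in both injured libraries. Its share of the class II set counts was 85.3% in the naïve library, 17.4% with physical and 75.8% with ischemic injury. In the naïve library, 1 cell of cluster 9 gave 981 of the 1156 set counts. With physical injury, 1 cell of the endothelial cluster 5 gave 107 of the 258. Of the H2-DMa counts, cluster 9 held only 33.3%, 31.8% and 56.7% in the naïve, physical injury and ischemic injury libraries. It held none of the few Ciita counts. Cd86 thus lay in the leukocyte cluster in every library in which it was found. The class II set did so in the injured Tbx18-tdT+ libraries. In the NG2 line it did so to a varying degree, and single cells weighed heavily on the naïve and physical injury shares.

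**Figure D2:**
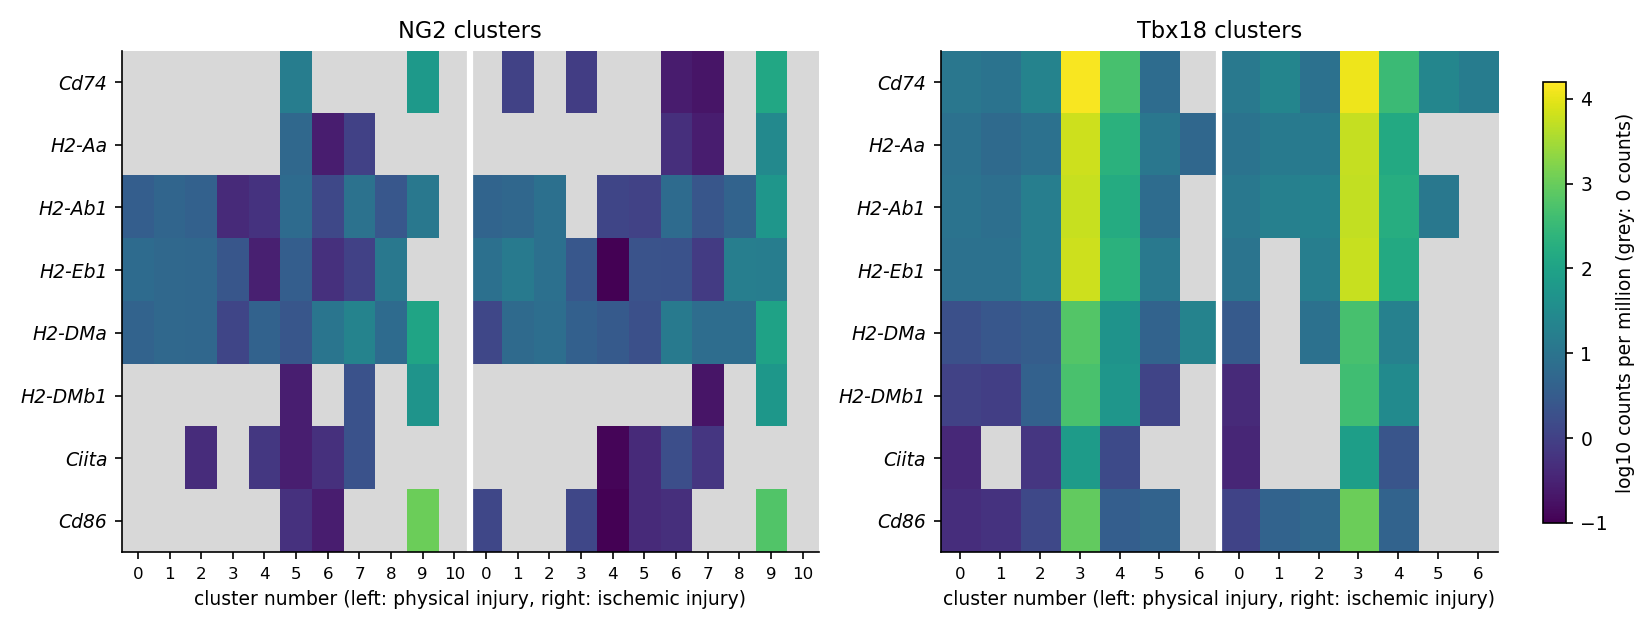
Level of each gene in each cluster of the injured NG2-tdT+ (left panel) and Tbx18-tdT+ (right panel) libraries, as log10 of the summed CPM; grey marks 0 counts. Tbx18-tdT+ cluster 3 was high for all 8 genes, whereas in NG2-tdT+ cluster 9 Cd86 stood out, at 1061 and 608 CPM.

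The 2 leukocyte clusters differed in their markers. The microglia list (11 genes, among them P2ry12, Tmem119 and Sall1) summed to 20661 to 24885 CPM in the 3 libraries of NG2-tdT+ cluster 9, and all 11 were at 50 CPM or more. In Tbx18-tdT+ cluster 3 it summed to 6545 CPM after physical injury and 5185 CPM after ischemic injury, with 7 and 6 of the 11 at that level, and the microglial transcription factor Sall1 was at 0.502 and 0.968 CPM. The monocyte list (Ccr2, Ly6c2, Plac8, Chil3, Vcan and Lyz2) was at 7238 and 6657 CPM in cluster 3 and at 327 to 792 CPM in cluster 9. Cluster 3 is therefore called by its number, since monocyte, border macrophage, dendritic and T cell transcripts lie in it beside those of microglia.

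Within Tbx18-tdT+ cluster 3, a cell was counted as class II positive if it had at least 1 UMI of each of the 4 set genes. This was so in 248 of 318 cells, or 78.0% (73.0% to 82.4%), after physical injury and in 186 of 265 cells, or 70.2% (64.3% to 75.6%), after ischemic injury. The intervals of both injuries overlap. Endothelial cells of the same libraries (cluster 0) are given for comparison, though the clusters themselves were formed from these counts. Of them, 0 of 1788 (which allows up to 0.168%) and 3 of 1488 (0.202%) were positive. Their medians were 6702 and 8981 UMIs, against 12086 and 15595 UMIs in cluster 3. With each cell thinned to 1000 UMIs, the shares in cluster 3 were 70.1% and 63.1% (0 and 2 shallower cells left out) and none of 1735 and 1478 cells of cluster 0 was positive (which allows up to 0.173% and 0.203%).

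The transcripts were spread over many cells. Class II set counts per cell in cluster 3 had a median of 386 and a maximum of 1844 after physical injury, and a median of 372 and a maximum of 1889 after ischemic injury. In the median cell this was 3.70% and 2.99% of all UMIs, and the top cell held 1.42% and 1.61% of the cluster's set counts. The distribution had a low and a high end: 31 of 318 cells had no set UMI, 202 had 100 or more but fewer than 1000 and 21 had 1000 or more after physical injury, against 41, 141 and 31 of 265 after ischemic injury. For the single chains the median cell had 79 and 73 UMIs of H2-Aa, 66 and 69 of H2-Ab1, and 75 and 69 of H2-Eb1, beside 165 and 159 of Cd74.

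**Figure D3:**
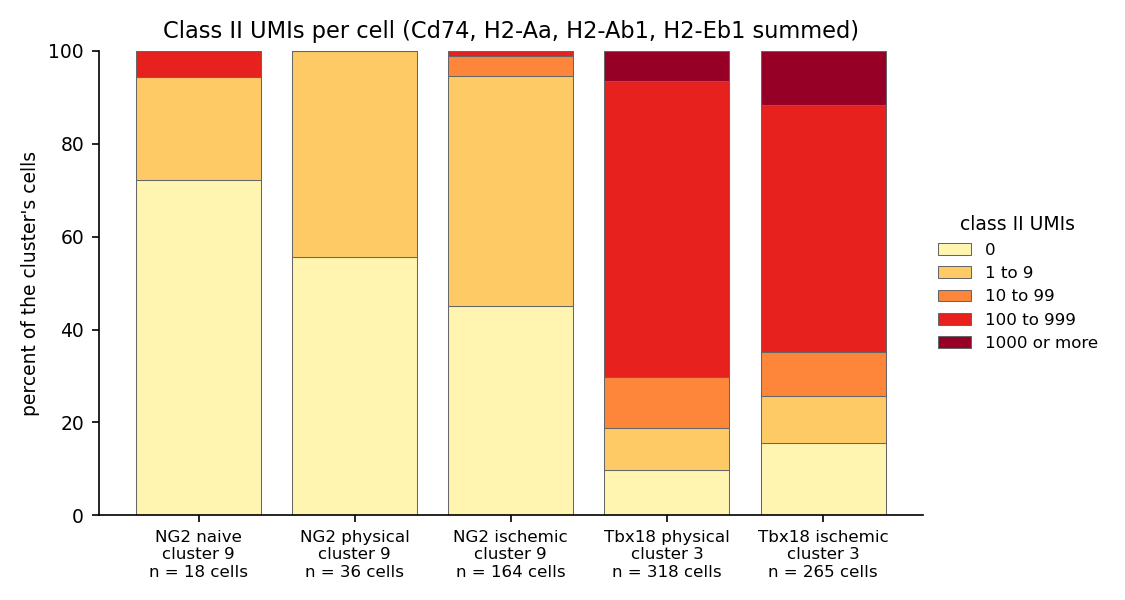
Percent of cells of each leukocyte cluster by their summed UMIs of Cd74, H2-Aa, H2-Ab1 and H2-Eb1, in 5 bins; the naïve Tbx18-tdT+ cells of cluster 3 are not shown. No cell of NG2-tdT+ cluster 9 had 1000 or more, and 21 of 318 and 31 of 265 cells of Tbx18-tdT+ cluster 3 did.

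Levels after ischemic and physical injury were then compared in the same cluster. With 1 pooled library per injury, a difference cannot be told from variation between libraries. The naïve cells of this cluster lacked pan-leukocyte markers and gave no baseline. Whether ischemia added to the effect of physical injury was therefore not tested. The class II set was at 32643 CPM (32466 to 32821) after physical injury and 28347 CPM (28185 to 28510) after ischemic injury, a ratio of ischemic to physical of 0.868 (0.862 to 0.875). The chains and the invariant chain moved by like amounts, with ratios of 0.855 for Cd74, 0.841 for H2-Aa, 0.909 for H2-Ab1 and 0.887 for H2-Eb1. H2-DMa and H2-DMb1 were at ratios of 0.762 (0.718 to 0.809) and 0.797 (0.747 to 0.851). Ciita went the other way, at 70.3 and 81.1 CPM and a ratio of 1.15 (0.982 to 1.36) whose interval includes 1, and Cd86 was at 893 and 1079 CPM, a ratio of 1.21 (1.16 to 1.26). None of the 8 members was past 2-fold in either direction, and of all 3349 callable genes 0.627% were higher and 0.508% lower after ischemic injury. The Cd86 ratio fell to 1.02 without the 5% deepest cells of each library and to 1.01 when the study's own filters on cells were applied again.

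NG2-tdT+ cluster 9 had little class II at either injury. Of its cells, 0 of 36 after physical injury (which allows up to 8.33%) and 4 of 164 after ischemic injury, or 2.44% (0.668% to 6.13%), had all 4 transcripts. The ischemic share was 1.30% with cells thinned to 1000 UMIs. None of the 18 naïve cells could have all 4, since H2-Aa had 0 counts in the whole naïve library and may have been removed there. The class II set was at 5379 CPM, 78.3 CPM and 229 CPM, but 981 of the 986 naïve counts came from 1 cell. The naïve sum also holds no H2-Aa. Without the cell with the most class II UMIs of each library, the ischemic to physical ratio of the set went from 2.93 (2.17 to 4.04) to 1.96. Among 5 callable members, H2-Ab1 was the only one past 2-fold, at 12.2 CPM from 7 counts and 53.1 CPM from 191 counts, a ratio of 4.36 (2.08 to 11), where 3.13% of callable genes were higher and 3.99% lower. That call rests on 1 cell with 69 of the 191 counts, without which H2-Ab1 was at 34.1 CPM, under 50 CPM, with a ratio of 2.80. Cd74 fell just short of the rule because of the pseudocount, at 66.1 and 132 CPM and a ratio of 2.00 (1.44 to 2.86). Without the same cell it was at 98.0 CPM after ischemic injury.

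H2-DMa was at 213, 110 and 99 CPM in cluster 9 (naïve, then physical, then ischemic injury), with a UMI in 55.6%, 61.1% and 65.2% of cells, against 1.19%, 1.24% and 3.25% of smooth muscle cells (cluster 3 of the NG2 line). Median depths were 10450, 16124 and 19742 UMIs in cluster 9 and 7909, 10167 and 8325 UMIs in the smooth muscle cells. Over the whole NG2-tdT+ libraries, a UMI of H2-DMa was in 1.90%, 5.38% and 9.20% of cells. A large part of its counts lay outside cluster 9. The naïve H2-DMa value rests on 1 cell with 23 of its 39 counts and was 96.2 CPM without it, and naïve H2-DMb1 went likewise from 136 to 36.1 CPM. Cd86 was at 829, 1061 and 608 CPM, with a UMI in 72.2%, 88.9% and 80.5% of cells (37.5%, 57.1% and 40.3% when thinned to 1000 UMIs, with 2, 1 and 10 cells left out) and in 0 of 503 (up to 0.596%), 0 of 242 (up to 1.24%) and 1.08% of smooth muscle cells. After ischemic injury Cd86 was 0.573 times (0.523 to 0.628) its level after physical injury, and Ciita had 0 counts in cluster 9 in all 3 libraries, which over the 218 cells allows up to 0.689 CPM.

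Set against each other at the same injury, the leukocyte clusters of the lines were most unlike in the chains, less so in the editors and least in Cd86. After physical injury, Cd74 was 209-fold higher in Tbx18-tdT+ cluster 3 than in NG2-tdT+ cluster 9 (152 to 295) and H2-Ab1 was 483-fold higher (234 to 1202), and H2-Aa and H2-Eb1, which had 0 counts in cluster 9, were at least 1248-fold and at least 1232.5-fold higher. H2-DMa was 5.75-fold and H2-DMb1 10.4-fold higher. Cd86, at 893 and 1061 CPM, had a ratio of 0.842 (0.772 to 0.919), which became 1.14 with TMM factors in place of cluster totals. In all, 7 of 8 members were past 2-fold higher and 0 lower, where 11.2% of callable genes were higher and 18.4% lower.

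After ischemic injury the order was alike. Cd74 was 89.3-fold higher (81.6 to 98.0), H2-Aa 199-fold, H2-Ab1 101-fold and H2-Eb1 354-fold, H2-DMa was 4.85-fold and H2-DMb1 7.22-fold higher, and Ciita (335 counts against 0) was at least 97.2-fold higher. Cd86 was at 1079 and 608 CPM, a ratio of 1.78 (1.69 to 1.87), so that 7 of 8 members were again past 2-fold, where 13.8% of callable genes were higher and 13.7% lower. With TMM factors the Cd86 ratio was 2.02 and all 8 members were past 2-fold, where 16.5% of callable genes were higher. Without the NG2-tdT+ and Tbx18-tdT+ cells with the most class II UMIs, the ratios of H2-Aa, H2-Ab1 and H2-Eb1 became 414, 156 and 698. The NG2-tdT+ values come from 36 and 164 cells, and the clusters were formed in separate integrations, so line, sort and clustering cannot be told apart. The TMM factors raised these ratios by 0.43 (physical) and 0.19 (ischemic) on the log2 scale. With them the share of calls that were higher went from 37.7% to 68.2% and from 50.1% to 63.1%.

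**Figure D4:**
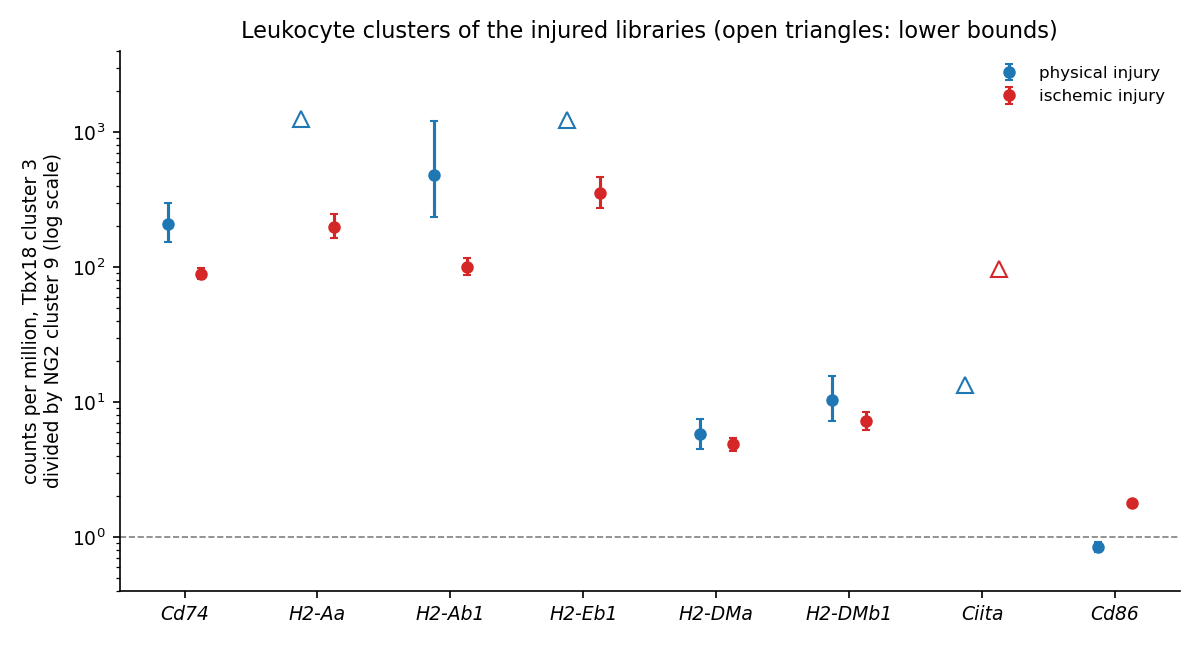
Ratio of the CPM in Tbx18-tdT+ cluster 3 to those in NG2-tdT+ cluster 9 for each gene and injury, on a log scale, with exact 95% intervals (counting error only). Open triangles are lower bounds by the limit of 3 counts where cluster 9 had 0 counts, and the dashed line marks a ratio of 1. The chains and Cd74 lay between 89.3 and 483 or above a bound over 1200, H2-DMa and H2-DMb1 between 4.85 and 10.4, and Cd86 at 0.842 and 1.78.

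Within cluster 3, the other members were compared between cells with all 4 set transcripts (248 and 186 cells after physical and ischemic injury), with 1 to 3 of them (39 and 38) and with none (31 and 41). Ciita was found in the cells with all 4 and almost nowhere else: 279 of its 280 counts after physical injury and 335 of 335 after ischemic injury, at 87.1 and 109 CPM. H2-DMa was at 765, 80.3 and 60.8 CPM in the 3 groups after physical injury and at 615, 101 and 55.1 CPM after ischemic injury. H2-DMb1 was at 625, 30.9 and 3.38 CPM and at 534, 27.5 and 12.5 CPM. All 3 genes were thus highest in the cells with all 4 transcripts. Cd86 differed less, at 936, 842 and 520 CPM after physical injury and at 1199.5, 950 and 361 CPM after ischemic injury. A UMI of Cd86 was found in 58.1% of the 31 cells and 34.1% of the 41 cells with no class II set transcript, against 0.605% of smooth muscle cells of the physical injury library (median of 10561 UMIs). The groups also differed in depth, with medians of 12803, 10752 and 8458 UMIs per cell after physical injury and 16160, 18060 and 8701 UMIs after ischemic injury, whose part in these values was not tested.

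Marker lists of leukocytes differed in how they moved with this split. The T cell list (Cd3d, Cd3e, Cd3g, Trac and Cd2) summed to 3.12 CPM in the cells with all 4, 142 CPM with 1 to 3 and 837 CPM with none after physical injury, and to 2.60, 154 and 1114.5 CPM after ischemic injury. The neutrophil list was at 34.0, 43.2 and 1404 CPM and at 35.1, 1499 and 3742 CPM. The cells with no class II set transcript thus had the highest T cell and neutrophil levels of the 3 groups. The border macrophage list (such as Mrc1, Pf4 and F13a1) was at 1343, 4320 and 3696 CPM and at 1189, 3131 and 1773 CPM. The dendritic cell list was at 542, 298 and 165 CPM and at 634, 647 and 70.1 CPM. The monocyte list was at 6826, 9180 and 8508 CPM and at 6410, 7986 and 6389 CPM. The microglia list was at 6426, 7383 and 6456 CPM and at 5151, 6753 and 2878 CPM. Monocyte and microglia transcripts were thus also found in the cells with no class II set transcript.

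**Figure D5:**
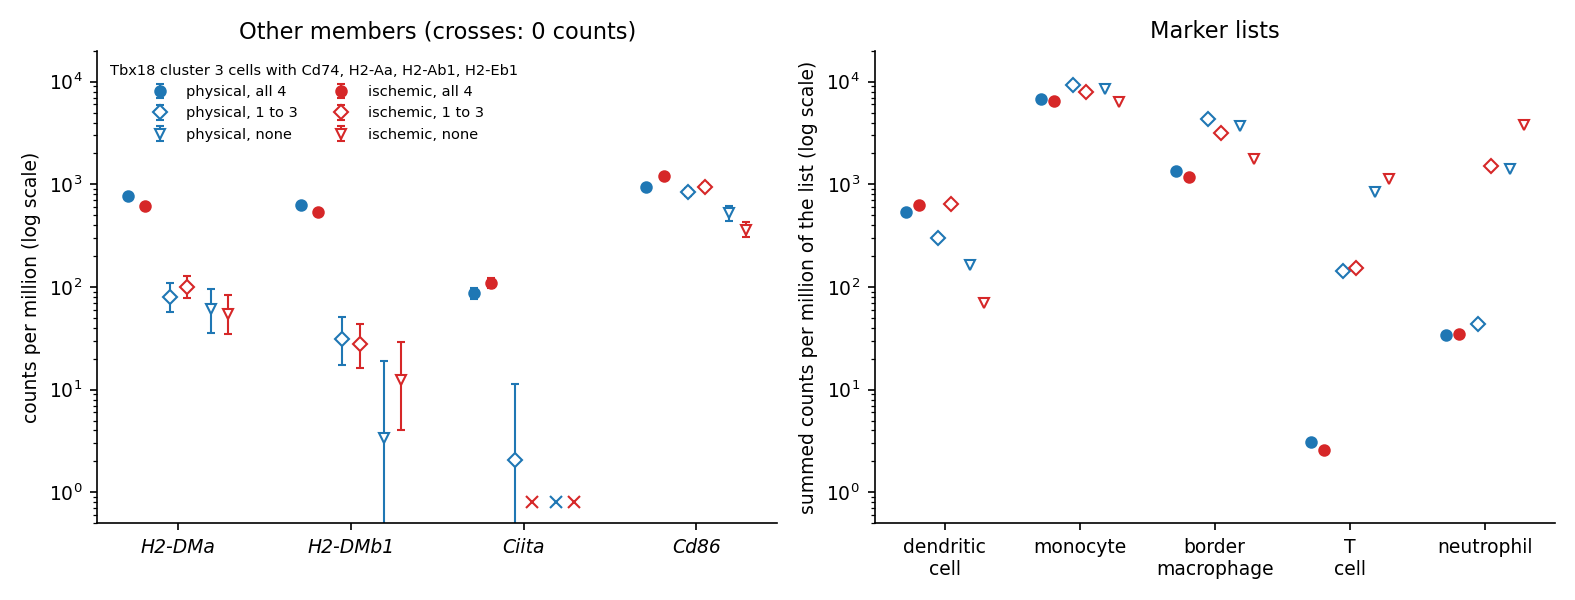
Left, CPM of the other 4 members in Tbx18-tdT+ cluster 3 cells with all 4, with 1 to 3 or with none of the class II set transcripts, with exact Poisson 95% intervals (counting error only) and crosses for 0 counts; right, CPM of the marker lists in the same cells. Both axes are logarithmic. Ciita was at 87.1 and 109 CPM in the cells with all 4 and at 0 to 2.06 CPM in the others, while Cd86 was at 361 CPM or more in each group.

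Cells of cluster 3 were also divided by single markers, with each marker found in at least 10 cells set against the cells without it. For the dendritic cell list, cells with the marker had more of the class II set for 5 of 6 markers after physical injury and 6 of 7 after ischemic injury. The lectin Cd209a was the highest, at 48311 against 27886 CPM (60 and 258 cells) and at 45653 against 22231 CPM, and the migration receptor Ccr7 went the other way, at 24931 against 33060 CPM and at 20276 against 28892 CPM. After physical injury the 5 higher markers lay in deeper cells, with medians of 14894 to 17412 UMIs against 11013 to 11446 UMIs without them. For Ccr7 the medians were 11952 and 12086 UMIs. The cells without a marker also include those with T cell and neutrophil transcripts. What part depth and these cells had was not tested, and no share over all genes was computed. The monocyte and border macrophage lists were mixed, with 2 of 6 markers each on the higher side at both injuries. Among monocyte markers the chemokine receptor Ccr2 (35496 against 17217 CPM and 30311 against 13280 CPM) and Lyz2 were higher, whereas Ly6c2 (15818 against 33981 CPM and 15944 against 30379 CPM), Chil3, Vcan and Plac8 were lower. Among border macrophage markers the scavenger receptors Mrc1 (35767 against 22305 CPM and 32799 against 19595 CPM) and Cd163 were higher, and Cbr2 (12227 against 34613 CPM and 16086 against 29553 CPM), Pf4, F13a1 and Ms4a7 were lower. All 5 T cell markers were lower at both injuries, with 47.0 to 10204 CPM in the cells with the marker after physical injury and 24.3 to 7858 CPM after ischemic injury, in 10 to 21 cells. Microglia markers were divided, with 6 of 10 and 5 of 10 higher. No list but that of T cells thus lay on one side in full among lists with more than 2 such markers.

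Over the rest of the cells, class II counts were low. In Tbx18-tdT+ endothelial cells (cluster 0) the set was at 39.1 CPM after physical injury and 44.2 CPM after ischemic injury, from 481 and 623 counts. Most cells with any set transcript had a single set UMI (366 of 416 and 330 of 400). Cd74 was 30.1% (26.1% to 34.5%) and 28.6% (25.1% to 32.3%) of these set counts, against 42.3% and 41.7% in cluster 3, and H2-Ab1 was 24.7% and 26.8% against 18% and 18.9%. The mix was like this in the other vascular cells of the physical injury library, with Cd74 at 29.8% in smooth muscle cells and 33.0% in pericytes, and it differed from that of cluster 3 by more than counting error in endothelial and smooth muscle cells. Lyz2, a transcript of monocytes and macrophages, was at 78.6 and 75.3 counts per 100 of Cd74 in endothelial cells, at 86.9 and 80.6 in smooth muscle cells and pericytes after physical injury, and at 47.3 and 48.4 in cluster 3, and what part free RNA had in these counts was not tested.

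Tbx18-tdT+ cluster 4, which the study names vascular-genic pericytes, also held class II positive cells after injury. They were 39 of 349, or 11.2% (8.07% to 15.0%), after physical injury and 7 of 143, or 4.90% (1.99% to 9.83%), after ischemic injury, and 3.56% and 2.14% when thinned to 1000 UMIs, with 12 and 3 cells left out. None of the 157 naïve cells of this cluster was positive, at a median of 1724 UMIs. The set was at 1057 and 815 CPM, and H2-DMb1 had 11.2 and 8.86 counts per 100 of Cd74, against 3.66 and 3.42 in cluster 3. Cd86 was at 3.66 and 4.61 CPM in cluster 4, from 10 and 6 counts. Leukocyte markers moved with the class II positive cells of cluster 4, whose part in the result was not tested: the pan-leukocyte list (6 of 6 detected in each group) summed to 1046 CPM in the 39 positive cells and 385 CPM in the 178 cells with no set transcript after physical injury, and to 5086 and 440 CPM (7 and 89 cells) after ischemic injury. The pericyte list was at 36.1 and 179 CPM and at 0 and 32.6 CPM in the same cells.

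In NG2-tdT+ pericytes (clusters 0, 1 and 2, 5434 cells of the 3 libraries), the beta chains were detected beside few or no counts of Cd74, H2-DMb1 and H2-Aa. The alpha chain of H2-Eb1 was not counted. H2-Ab1 had 117 counts, or 5.13 CPM (4.24 to 6.15), and H2-Eb1 had 160 counts, or 7.02 CPM (5.97 to 8.19), whereas Cd74 had 2 counts, H2-DMb1 had 0, which allows up to 0.132 CPM, and H2-Aa had 0, which in the naïve library may be a removed gene. H2-Ab1 was at 5.31, 4.11 and 5.82 CPM and H2-Eb1 at 6.56, 5.97 and 9.49 CPM in the pericytes of the 3 libraries (naïve first, ischemic last), with overlapping intervals. Lyz2 had 11 counts in the same cells and C1qa had 22. In smooth muscle cells (cluster 3, 1022 cells), H2-Ab1 had 1 count and H2-Eb1 had 16, or 1.85 CPM, and in the mesenchymal-like pericytes of cluster 8 H2-Eb1 was at 15.4 CPM from 61 counts. In the oligodendrocyte lineage and radial glial precursors (clusters 4, 6 and 7), Ciita had 28 counts, or 0.559 CPM (0.371 to 0.807), beside 4 of Cd74. These cells also had 103 counts of H2-Ab1, 27 of H2-Eb1 and 8 of H2-Aa. Naïve Tbx18-tdT+ pericytes (cluster 2, 226 cells) had 4 counts of H2-Ab1, 13 of H2-Eb1 and 0 of Cd74. Beta chains beside few counts of Cd74 were thus not particular to NG2-tdT+ pericytes. Of the 1280 naïve pericytes of cluster 0, 64 had a class II set transcript and 59 of these had 1 UMI.

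Further genes of the pathway were counted by lists, and those named were taken after their values were seen where a count was 5 or fewer. Between the injuries in Tbx18-tdT+ cluster 3, 0.627% of all callable genes were past 2-fold higher and 0.508% lower. No gene was so among the 9 callable genes of class II and peptide loading or the 5 of transcription. The same held for 4 of interferon gamma signalling, 4 of costimulation and coinhibition and 8 of class I. In lists this short, a count of 0 is near the shares of all genes. The counts that follow stand against 13.8% of all callable genes higher and 13.7% lower between the lines after ischemic injury, and 11.2% and 18.4% after physical injury, and with lists of 4 to 9 genes a count of 1 is no more than 1 gene above it. Between the lines after ischemic injury, 1 of 9 loading genes was higher in Tbx18-tdT+ cluster 3, the DM beta copy H2-DMb2 (52.3 against 1.67 CPM, 31.3-fold), and 4 were lower. These were the endosomal proteases Ctsd (0.0639 times, at 515 against 8068 CPM), Ctsl (0.110 times), Lgmn (0.259 times) and Ctsb (0.315 times). The invariant chain protease Ctss was at 1709 and 2787 CPM, within 2-fold. After physical injury 2 of 9 were higher, H2-DMb2 and March1, and the same 4 proteases were lower. With TMM factors Ctsb was no longer past 2-fold after physical injury, and the other 3 were.

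Among costimulatory ligands other than Cd86, Cd80 was higher in Tbx18-tdT+ cluster 3 at both injuries, at 107 against 34.8 CPM after physical injury (3.07-fold, 1.96 to 5.07) and 156 against 37.8 CPM after ischemic injury (4.13-fold, 3.43 to 5.01). Cd274, the inhibitory ligand PD-L1, was at 47.4 against 50.4 CPM and at 80.3 against 32.5 CPM (2.47-fold). Cd83, which stabilises class II and Cd86 at the cell surface, was lower in the Tbx18 line after physical injury (0.464 times) and within 2-fold after ischemic injury, and with TMM factors it was within 2-fold at both. In all, 1 of 4 genes of this list was higher and 1 lower after physical injury, and 2 of 4 were higher after ischemic injury. Tnfsf4, the ligand of OX40, had 0 counts in cluster 9 at both injuries and 7 and 61 counts in cluster 3, and Pdcd1lg2, or PD-L2, had 0 and 12 counts after physical injury. These are raw counts, and after physical injury cluster 9 had far fewer UMIs in all. There 28 counts were 48.7 CPM, whereas 280 counts were 70.3 CPM in cluster 3, so the raw counts are not on the same scale.

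In the interferon gamma list, Jak2 was higher at both injuries (2.87-fold and 3.42-fold) and the receptor chain Ifngr1 was so after ischemic injury (2.09-fold). Ifng itself was at 11.5 and 11.1 CPM in cluster 3. Of the transcription list, Nfya was lower after physical injury (0.386 times) and Nfyc higher after ischemic injury (2.23-fold), each 1 of 5. With TMM factors Nfya was within 2-fold, and Nfyc and Ifngr1 were higher at both injuries. Rfxank, a subunit of the X box factor RFX, had 26 counts in cluster 3 and 2 in cluster 9 after physical injury. Raw counts here and below are not scaled to the cluster totals, and cluster 9 had far fewer UMIs after physical injury. Spi1, the myeloid factor PU.1, was at 322 and 329 CPM in cluster 3 and at 370 and 358 CPM in cluster 9. Class I was measured in both clusters: B2m was at 1729 and 1996 CPM in cluster 3 and at 1682 and 2476 CPM in cluster 9, and 4 of 8 class I genes (H2-D1, Tap1, Tapbp and Psmb9) were higher after physical injury and 1 (Tap1) after ischemic injury, by 2.06-fold to 2.48-fold. With TMM factors these counts were 6 of 8 and 3 of 9, where 21% and 16.5% of all callable genes were higher. No gene of the T cell partners reached 50 CPM: Cd28, the receptor of Cd86, was at 25.1 and 30.7 CPM in cluster 3 and had 0 and 3 counts in cluster 9, and Cd4 had 6 and 17 counts in cluster 3 and 0 and 3 in cluster 9. Ctla4 had 49 counts in cluster 3 and 3 in cluster 9 after physical injury, and Trac, a T cell receptor chain, had 45 against 1 and, after ischemic injury, 82 against 2. In the NG2 line table H2-Eb2, Ifng and Cd3e are not listed.

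The genes whose levels over cell groups were most like the class II set were sought among 16071 genes with at least 100 counts, over the 42 groups of a cluster and library with at least 50 cells, which share libraries and depth. The 10 with the highest Pearson's r of log2(CPM + 1) were Lyz2 (0.908), Wfdc17, Lsp1, H2-DMb1 (0.889), F13a1, Ccr2, Clec4a2, Ccl6, Ccl24 and Clec12a (0.872). Most of the 42 groups are low for all of them, so r rests on few groups. H2-DMb1 was thus the only member outside the set among these 10, and Cd86 stood 104th (0.814), Ciita 198th (0.770) and H2-DMa 206th (0.767).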

How the data were processed

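The authors made the deposited values, UMI counts per gene and cell, with Cell Ranger (7.0.0) on mm10 (GRCm38), as named in the submitters' processing notes, and deposited them after filtering each library on genes (found in 3 cells or more) and then on cells, with each cell's library and its cluster from Seurat integration. The study's methods name a range of Cell Ranger versions, and which library had which, or whether intronic reads were counted, is not given in the sources used here. Its part in the differences between libraries was not tested. The percent of mitochondrial transcripts was computed from the deposited counts. It was used only where the authors' filters (a minimum of 200 genes, a maximum of 12% mitochondrial, and both depth measures no more than 2 SD from their mean) were applied again. All deposited cells were kept otherwise. No doublet caller was run. As an alternative the 5% deepest cells of each library were left out.

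For each cluster in each library the counts of all its cells were added up and set against their total UMIs (CPM, scaled to 1000000). With 1 pooled library per condition no test was made. Ratios between cell groups come from the same sums, and their log2 values have a pseudocount of 1 CPM. A 0 is given with the limit that 3 counts allow. For the summed levels of cell types a list of markers was fixed from common knowledge, and the 8 genes and all lists were chosen with earlier results of these data known. The text names the 8 genes throughout, from each pathway list the genes with the highest CPM in the leukocyte clusters and those at 3 counts or fewer, and the 10 genes most like the class II set. Genes named because few passed a threshold were chosen after their values were seen. Alternatives were TMM factors (edgeR 4.0.16, over the 20347 genes in both tables), totals without mitochondrial, ribosomal and hemoglobin genes, other cell filters, thinning to 1000 or 2000 UMIs, and medians over cells.

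The calculations were tested on simulated data. Promoters and gene positions come from RefSeq (GRCm38.p6) and GENCODE M21. Promoter entries matched 4 of the 8 genes by symbol. Scripts ran in Python 3.11.15 (with pandas 2.3.3, matplotlib 3.10.9, scipy 1.17.1 and numpy 2.4.6) and R 4.3.3.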

Additional observations from a re-analysis of the deposited data

How the results depend on the processing

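With 1 pooled library per condition, no value has a spread between animals, and the NG2-tdT+ cluster values rest on 18, 36 and 164 cells, in which 1 cell can decide a class II level. No paired analysis was possible because each condition has 1 library and the labels give no replicate numbers. Of 454 alternative values, 37 moved by more than 1.5 times and 1 changed direction. That was the ratio of Cd86 between the lines after physical injury, 0.842, which became 1.14 with TMM factors, 0.734 without the 5% deepest cells and 0.958 as medians over cells. The limit of 1.5 times passes over smaller moves. In a separate count that also marked smaller moves, 44 alternatives of the headline results moved, 51 stayed the same and 1 was reversed. For the other results, 185 moved and 184 stayed the same. The alternatives without the top class II cell, and Cd86 in class II positive cells alone, were chosen after seeing the data.

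The share of class II positive cells after physical injury was 72.6% among the 354 cells of the whole Tbx18-tdT+ library with 3 or more pan-leukocyte markers, in place of cluster 3, and in cluster 3 it was 70.1% with cells thinned to 1000 UMIs, and 63.1% after ischemic injury with the same thinning. The class II set there, after physical and ischemic injury, was at 48004 and 40987 CPM with TMM factors, 41501 and 35542 CPM with totals without mitochondrial, ribosomal and hemoglobin genes, 34959 and 29513 CPM with the filters applied again, and 35254 and 29549 CPM without the deepest cells. Its ischemic to physical ratio, 0.868, was 0.854, 0.856, 0.844 and 0.838 in the same order and 0.808 as medians over cells. All of these ratios lay below the interval of the main ratio, 0.862 to 0.875, which covers counting error only. The ratio of Cd86 there was 1.02 without the deepest cells and 1.01 with the filters.

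In NG2-tdT+ cluster 9 the ischemic to physical ratio of the set was 1.96 without the top cell, and that of Cd86 was 0.667 with TMM factors, 0.512 without the deepest cells and 0.705 as medians. Between the lines after ischemic injury, the ratio of the set was 141 with TMM factors, 183 without the top cell and 1131 as medians, and that of Cd86 was 2.02, 1.46 without the deepest cells, 1.66 as medians and 1.97 in class II positive cells. No ratio of medians could be had for the set in the 2 comparisons where the NG2-tdT+ physical injury median was 0.

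For whole libraries, totals without the gene classes gave a set level of 61.9 and 22.6 CPM (NG2-tdT+ naïve and ischemic) and 5141 and 6837 CPM (Tbx18-tdT+ physical and ischemic). The filters gave 10.0, 24.5, 3372 and 4356 CPM, and leaving out the top cell 8.64, 15.0, 4375 and 5768 CPM, with 6.13 CPM in the NG2-tdT+ physical injury library. With TMM factors, 2 of 5 members were past 2-fold higher between the injuries in NG2-tdT+ cluster 9, and calls that were higher went from 43.9% to 75% of all calls there, with 6.47% of callable genes higher, while all 8 members were past 2-fold higher between the lines after ischemic injury, where 16.5% of callable genes were.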

Other observations

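In the NG2-tdT+ libraries, 13 cells had 10 or more UMIs of the class II set. The cell with the most, in cluster 9 of the naïve library, had 981 of 16935 UMIs: 606 of Cd74, 175 of H2-Ab1, 200 of H2-Eb1 and 0 of H2-Aa. It also had 7 UMIs of the monocyte receptor Ccr2, 6 of Mrc1 and 14 of Lyz2, and 0 of the microglial transcripts C1qa and P2ry12. A cell of the endothelial cluster 5 after physical injury had 107 set UMIs together with 101 of the endothelial Cldn5 and 12 of Ptprc, among 23628 UMIs. What these cells are was not tested.

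In the whole NG2-tdT+ naïve library, 0 counts of H2-Aa stood beside 245 of H2-Ab1 and 300 of H2-Eb1. Counts of a gene seen in fewer than 3 cells of a library were removed before cells were filtered, so removed and absent counts of H2-Aa cannot be told apart here.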
